A study of Mus musculus with 12 samples.

Results

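The genes described here encode proteins of the cytosolic ribosome. They cover only a part of it: Rpl3, Rpl11, Rplp1 and Rplp2, for example, were not analysed here. They were chosen by name alone: every platform symbol that is Rpl or Rps followed by a digit, or Rplp0 to Rplp2 or Rpsa, without the Rps6k kinases and without symbols marked as pseudogenes. This gave 40 genes, measured by 49 probes, of 17742 named genes and 26423 probes in all. They comprised 22 proteins of the large subunit, 13 of the small subunit, 4 paralogues (Rpl3l, Rpl7l1, Rpl39l and Rps27l) and Rps19bp1. The last one matches the naming rule but encodes a regulator of the deacetylase Sirt1 and is not a ribosomal protein. No measured value enters this rule, but the members were chosen with earlier results of these data known.

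Hearts were taken at postnatal day 8 from mice of a C57bl/6 X 129 hybrid background. One group carried a conditional mutation of Salvador (Sav1), the scaffold of the Hippo kinases, and is called Salv CKO. The other group was wild-type and is called Control. Each group had 2 biological samples, and each sample was hybridised to 3 technical one-colour arrays, 12 in all. The sources used here do not name the Cre driver or the deleted part of the gene, or say whether hearts were pooled. The labels name the tissue both as whole heart of postnatal day 8 and as embryonic heart, and the former was used.

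A ribosome is built from ribosomal RNA and about equal numbers of copies of each ribosomal protein, so cells control the genes for these proteins together. Much of that control acts on translation: their mRNAs begin with a short pyrimidine tract, the TOP motif, through which the mTOR pathway and the binding protein Larp1 set how much is translated. Growing heart muscle makes ribosomes in quantity, and Hippo signalling restrains growth of the neonatal heart. The comparison therefore shows whether mRNA levels of this growth machinery differed between the labelled groups. A probe intensity reports mRNA only, not translation.

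Start-site sequences are shown because the pyrimidine tract is the feature that joins these genes to translational control. RefSeq promoter windows (GRCm38.p6, 250 bases before to 50 after a start) were found for 35 of the 40 genes, 44 windows in all. Within 25 bases on either side of the start, 16 of the 44 windows (36.4%) held an unbroken run of at least 8 pyrimidines that begins with C, against 15.5% of all 32851 windows. The 6 longest runs belonged to the following genes. Each line reads 5′ to 3′ on the gene's strand, with the run in capitals.
Rpl27a: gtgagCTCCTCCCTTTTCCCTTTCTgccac
Rpl15: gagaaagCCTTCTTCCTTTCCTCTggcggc
Rpl14: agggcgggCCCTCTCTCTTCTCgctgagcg
Rps25: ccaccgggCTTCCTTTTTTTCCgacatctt
Rpl35a: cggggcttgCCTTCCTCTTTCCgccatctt
Rpl4: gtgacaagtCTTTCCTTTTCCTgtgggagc
They lie at chr7:109519186-109519215 (plus strand), chr14:18270968-18270997 (minus), chr9:120571501-120571530 (plus), chr9:44407684-44407713 (plus), chr16:33056468-33056497 (plus) and chr9:64173361-64173390 (plus), in that order. The run began 4 bases before the annotated start in Rpl27a and Rpl15, 8 in Rpl14, 22 in Rps25, 5 in Rpl35a and 17 in Rpl4. The runs of Rps25 and Rpl4 ended before the annotated start and so lie outside the annotated mRNA. The 36.4% counts runs near a start, inside the annotated mRNA or not, and is no count of TOP motifs. The presence of a run is a description of these letters and not a measured start of transcription.

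Further letters were counted on both strands of the whole windows. The ETS core CCGGAAG occurred in 15 of 44 windows (34.1%, against 8.86% of all windows) and the YY1 core ATGGCG in 13 (29.5%, against 8.93%). The letters GGAATG, the site of the TEAD factors through which the Hippo pathway acts, occurred in 4 windows (9.09%, against 14.7%), those of Rpl22, Rps16, Rps24 and Rps27. The E-box CACGTG, which Myc binds, occurred in 4 windows (9.09%, against 7.15%), those of Rpl14, Rpl19 and Rpl23. TATAAA occurred in 3 (6.82%, against 13.6%). The ETS core read on the other strand begins CTTCC and can overlap a pyrimidine run. These matches are letters, not sites of binding.

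The level of Sav1 did not separate the groups, so they are called by their labels only. Its single probe read log2 levels of 8.06 and 8.52 in Salv CKO 1 and 2 and of 8.75 and 8.08 in Control 1 and 2, a difference of -0.12 ± 0.34 (SE, limma adjusted p = 0.998). Levels throughout are log2(intensity + 1) after quantile normalization, averaged over the 3 arrays of a sample. Of 10 heart muscle markers, 7 were measured, and all 7 were bright (deposited sample means from 23790 to 50370). Markers of neighbouring tissues varied between samples. Sums here are of normalized intensities, taken back from the log2 levels, and not of deposited ones. The summed normalized intensity of 4 airway genes was high in Salv CKO 1 (1885) and Control 2 (5442). It was low in Salv CKO 2 (53.4) and Control 1 (57.3). The sum of 3 erythroid genes was 5249 in Control 2 and 9062 to 13620 in the others. That of 7 adipocyte genes was 16390 in Salv CKO 2 and 21250 to 27570 in the others, and 7 of 7 had a negative difference (median -1.02, where 48.6% of all probes were positive). Without Salv CKO 2 that median was -0.31, and without Salv CKO 1 it was -1.73. Their part in the results below was not tested. In whole hearts, fewer cells of a type and less RNA per cell cannot be told apart.

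No ribosomal protein gene passed the test between the groups. By the brightest probe of each gene, the smallest limma adjusted p was 0.998, so that 0 of 40 were under 0.05. An unadjusted p under 0.05 was found for 0 of 40, where 3.97% of all 26423 probes had one (1.95% higher in Salv CKO and 2.02% lower). With median centring Rpl10a had one (3.64% of all probes), and without normalization Rpl8, Rpl10a, Rpl29 and Rps3a1 did (4.95%). With sample as a random block Rpl6 and Rpl7l1 had one (8.33%). That fit takes 1 correlation of technical arrays (0.54) for all probes. Where the arrays of a sample repeat more closely than that, its p-values are too small. Over all probes limma called 0 after adjustment, a background of 0.0%, with 1048 at an unadjusted p under 0.05. Differences ran both ways. They were positive for 22 of 40 genes (48.6% of all probes), with a median of 0.041 (all probes -0.010) and quartiles of -0.078 and 0.21. Without Control 2 the median was -0.089 (all probes -0.039) and 17 were positive, where 12316 of 26423 probes were. With arrays centred on their medians it was -0.029 (all probes -0.078) and 19 were positive, where 10877 of 26423 probes were.

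The intervals say how large a difference in probe level the data leave possible. Of the 40 genes, 13 read under 100 on every array, where array medians ran from 58 to 88. A value of 10 or less occurred on some array for 6 genes. How far such dim readings follow mRNA was not tested, so their intervals need not bound a change in mRNA. The 95% interval of a difference had a median half-width of 0.66 on the log2 scale, and for 27 of 40 genes it lay wholly within 1 on either side of 0. For 33 genes it lay within 1.5. The median difference, whatever its sign, was 0.15 and the median SE 0.25. Each comparison rests on 2 samples against 2.

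**Figure D1:**
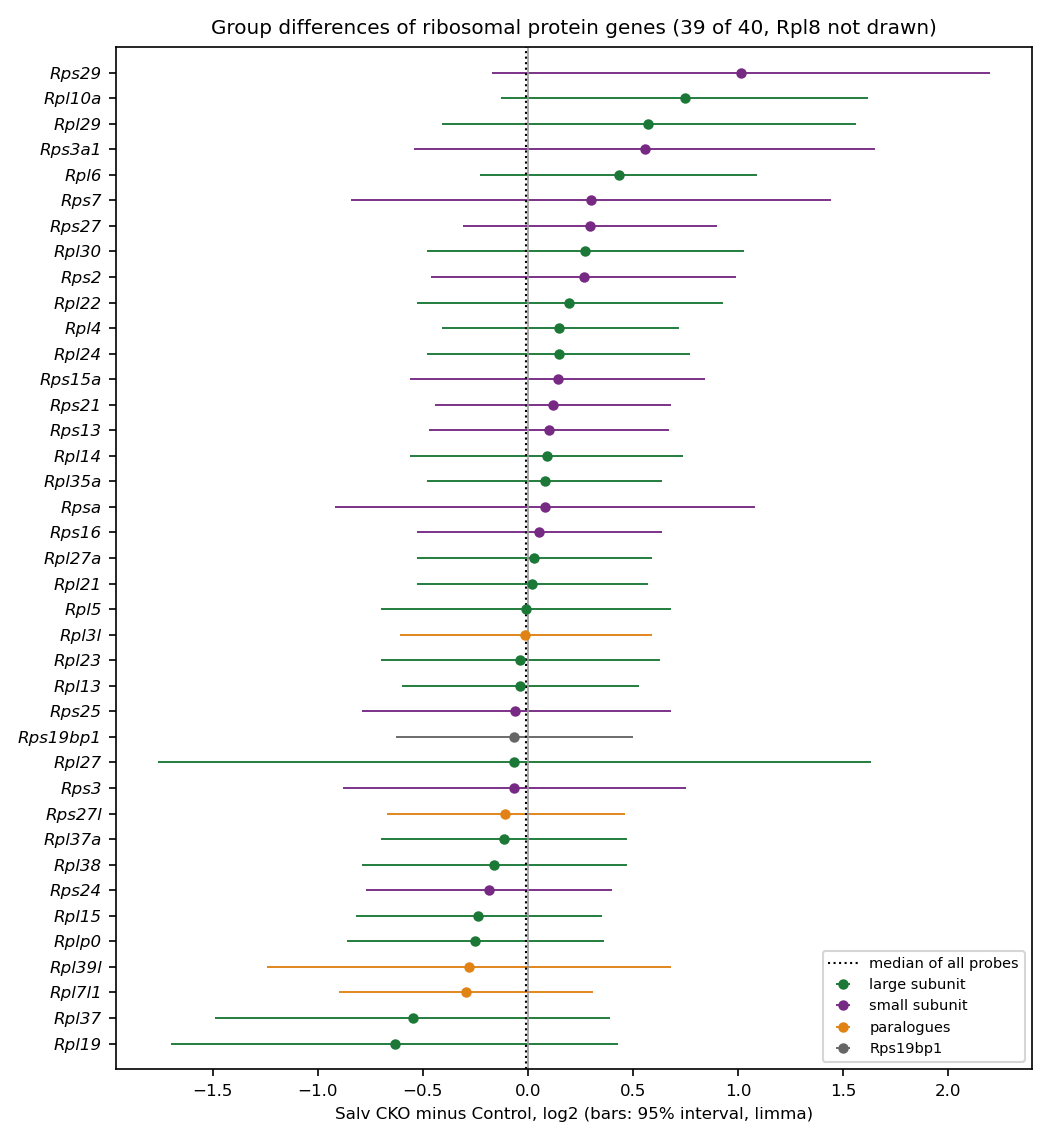
Difference in log2 level between Salv CKO and Control (horizontal axis) for 39 ribosomal protein genes, with 95% limma intervals from 2 samples against 2 and colours by subunit. Every interval includes 0, and the differences lie on both sides of the dotted median of all probes (-0.010). Rpl8 (2.08, interval -2.32 to 6.48) is not drawn.

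The groups did not overlap, that is, both samples of one lay above both of the other, for 12 of 40 genes, beside 30.6% of all probes. Of these, 7 were higher in Salv CKO (14.8% of all probes) and 5 lower (15.8%), which is near the background in both directions. The split depended on the scaling. Centred on array medians, 4 were higher and 2 lower (11.8% and 15.1% of all probes), and without normalization 12 were higher and 0 lower (23.2% and 4.39%). Among the 27 genes in the brighter 50% of probes, 3 were higher and 5 lower (14.3% and 15.4%).

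The 7 higher genes were Rpl4, Rpl6, Rpl10a, Rpl29, Rps21, Rps27 and Rps29. Rpl4, a protein that lines the exit tunnel of the nascent chain, had levels of 14.20 and 14.19 in Salv CKO 1 and 2 and of 13.95 and 14.14 in Control 1 and 2. The groups were apart, but Control 2 lay close below Salv CKO 2. Its difference was 0.15 ± 0.21 (SE, limma adjusted p = 0.998), and -0.068 with median centring.

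Rpl6, a large subunit protein, stood at 7.70 and 7.57 in the Salv CKO samples and at 6.99 and 7.42 in the controls. Control 1 was the low sample. The difference was 0.43 ± 0.25 (SE, limma adjusted p = 0.998). Rpl10a, which lies beside the exit site of transfer RNA, stood at 5.31 and 5.59 against 4.33 and 5.08, and again Control 1 was lowest. Its deposited intensities were low, from 37 to 51 in Salv CKO 1, 48 to 58 in Salv CKO 2, 15 to 18 in Control 1 and 26 to 35 in Control 2. Its difference of 0.75 ± 0.33 had the smallest p among the brightest probes of the members (limma, unadjusted p = 0.0787). Without Control 1 it was 0.37, and with a pseudocount of 16 it was 0.51.

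Rpl29, a large subunit protein, repeated that order at low intensity, with 5.10 and 5.24 against 4.13 and 5.07. Its difference was 0.57 ± 0.37 (SE), and 0.10 without Control 1. In the small subunit, Rps27, a zinc finger protein, stood at 6.02 and 6.33 against 5.84 and 5.92, a difference of 0.30 ± 0.23 (SE). Rps21 differed by 0.12 ± 0.21 (SE), and by -0.039 with median centring. Rps29, another zinc finger protein, was read at -1 to 9 on all 12 arrays, at the level of background. Its difference of 1.02 became 0.19 with a pseudocount of 16, and its size cannot be read.

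The 5 lower genes were Rpl15, Rplp0, Rps24, Rpl7l1 and Rps27l. Rplp0 forms the base of the stalk that recruits elongation factors, and it is a common reference gene in expression assays. Its levels were 9.45 and 9.55 in Salv CKO 1 and 2 and 9.91 and 9.60 in Control 1 and 2, where Control 2 lay close above Salv CKO 2. The difference was -0.25 ± 0.23 (SE, limma adjusted p = 0.998), and -0.10 without Control 1. No named probe for the other stalk proteins, Rplp1 and Rplp2, was used here.

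Rpl15, a core protein of the large subunit, stood at 10.63 and 10.58 against 10.98 and 10.72. Its difference was -0.24 ± 0.22 (SE). Rps24, a gene mutated in Diamond-Blackfan anaemia, an inherited failure of red cell production, stood at 7.45 and 7.70 against 7.81 and 7.71. Salv CKO 2 and Control 2 were nearly equal, and the difference was -0.19 ± 0.22 (SE). Control 1 was the highest sample in Rpl15, Rplp0, Rps24, Rpl7l1 and Rps27l, and the lowest in Rpl4, Rpl6, Rpl10a, Rpl29 and Rps27.

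Rpl35a and Rpl5, tied to the same anaemia, gave differences near 0. Rpl35a read 6.30 and 6.41 against 6.21 and 6.34 (0.083 ± 0.21, SE). Rpl5, which binds the small ribosomal RNA of the large subunit and, when unassembled, the p53 regulator Mdm2, read 9.03 and 9.18 against 9.34 and 8.87 (-0.007 ± 0.26, SE). Both controls lay outside the span of the Salv CKO samples, one above and one below. Rpl11, its partner, was not analysed here.

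Rps7, also tied to that anaemia, ranged widely among samples. Its brightest probe read 10.17 in Salv CKO 1 and 10.05 in Control 2. It read 9.55 in Salv CKO 2 and 9.07 in Control 1. Its other probe read 8.30 and 8.05 against 7.24 and 7.62 in the same order. Both probes thus put Salv CKO 1 and Control 2 above the other samples, across the labels, and the technical arrays were tight (median SD 0.021 for the brightest probe). The group difference was 0.30 ± 0.43 (SE) by the brightest probe and -0.063 by the other. Fau, the small subunit protein made as a fusion with a ubiquitin-like domain and not matched by the naming rule, read 9.15 and 8.32 in the Salv CKO samples and 7.54 and 8.86 in the controls, with the same samples high. The airway markers given above were higher in the same samples; their part in this order was not tested.

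**Figure D2:**
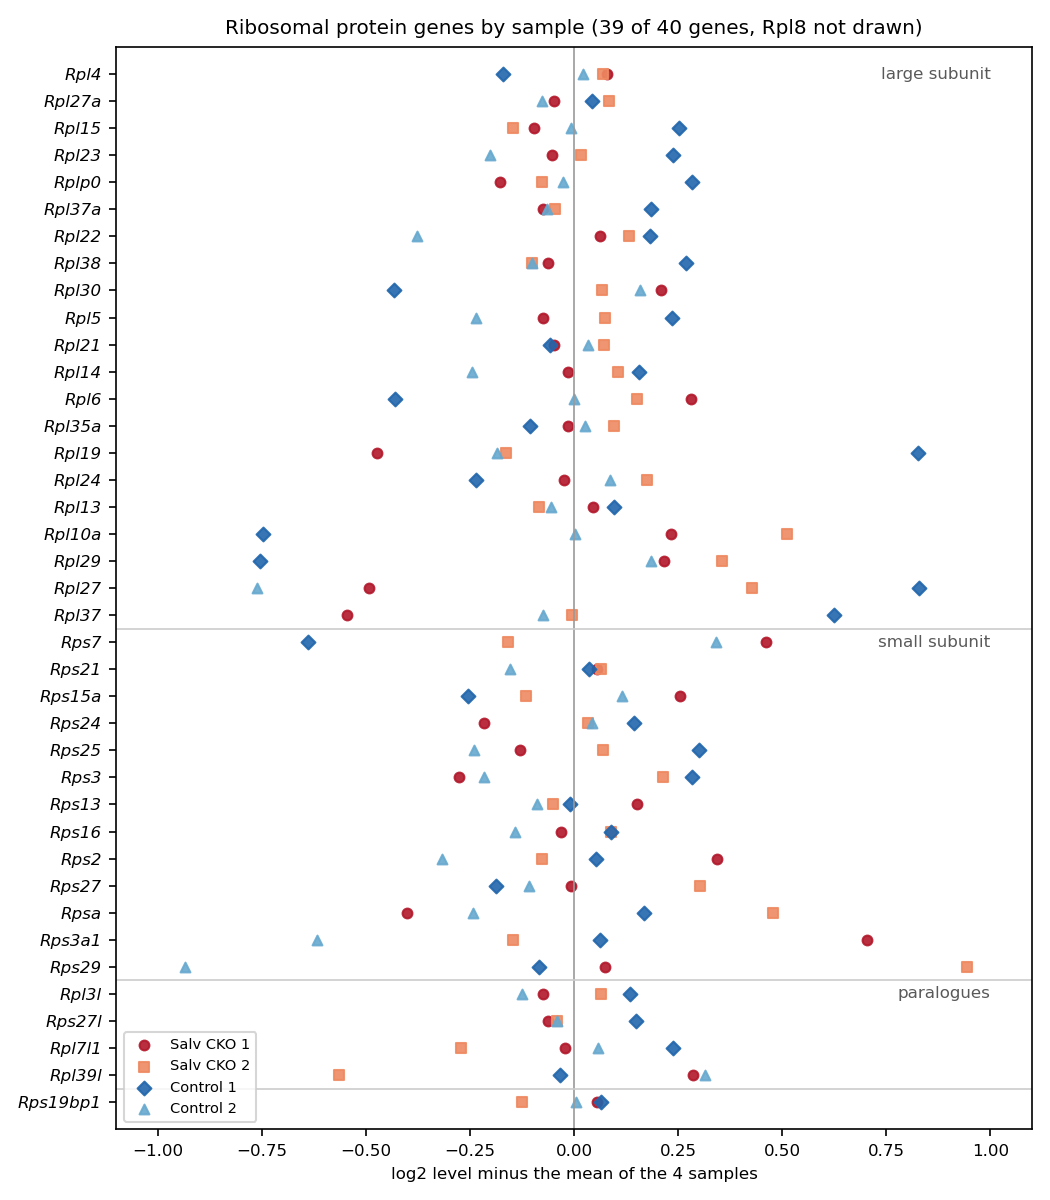
Log2 level of 39 ribosomal protein genes in each of the 4 samples, as the deviation from the gene's mean over the samples (horizontal axis), grouped by subunit. Red circles and orange squares are the Salv CKO samples, and blue diamonds and triangles the controls. Control 1 (dark blue diamonds) lies at one end of most rows, at the right for some genes and at the left for others.

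Sample by sample, Control 1 was the highest of the 4 samples for 19 of 40 genes (47.5%, against 35.8% of all probes) and the lowest for 12 (28.5% of all probes). Control 2 was lowest for 15 genes (37.5%, against 24.9%) and highest for 2, Rpl39l and Rpl8 (20.5% of all probes). Salv CKO 1 was highest for 8 genes and lowest for 8 (25.1% and 27.9% of all probes). Salv CKO 2 was highest for 11 and lowest for 5 (27.5% and 12.5%, against 18.7% of all probes in each). The median deviation from the gene mean was 0.076 in Control 1, -0.070 in Control 2, -0.018 in Salv CKO 1 and 0.063 in Salv CKO 2. Erythroid markers were also lowest in Control 2, and their part was not tested.

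By subunit, the large subunit had 12 positive differences of 22, with a median of 0.025, and the small subunit 10 of 13, with a median of 0.12, where 48.6% of all probes were positive. With 1 sample left out the large subunit median ran from -0.097 (without Control 2, 9 positive) to 0.12 (without Salv CKO 1, 14 positive). The small subunit median ran from 0.056 (without Control 2, 8 positive) to 0.21 (without Control 1, 10 positive). Without the dimmest 25% of probes, 8 of 11 small subunit genes and 12 of 22 large subunit genes were positive (48.5% of all probes). Without the dimmest 50% it was 6 of 9 and 8 of 14 (47.7% of all probes). The difference between the subunits was not tested. With median centring the large subunit median was -0.044 and the small subunit median 0.10, where the median of all probes was -0.078. Without normalization between arrays they were 0.15 and 0.29, where the median of all probes was 0.11. Among small subunit proteins at the path of mRNA, given as examples chosen after their values were seen, Rps2 read 6.55 and 6.13 against 6.26 and 5.89, and Rps3 read 6.80 and 7.29 against 7.36 and 6.86. In both genes the groups overlapped. Rpsa, known also as the laminin receptor precursor, was read at 5 to 17 on all arrays.

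Dim members ranged most among samples. Rpl27, a large subunit protein, read 3.90 and 4.82 in Salv CKO 1 and 2 and 5.22 and 3.63 in Control 1 and 2, so that the controls held both the highest and the lowest sample. Its difference was -0.067 ± 0.64 (SE), and its interval from -1.76 to 1.63 was the widest after Rpl8. Rps3a1, a small subunit protein, was read at -2 to 9 on all arrays, and its difference of 0.56 ± 0.41 (SE) is at background. The remaining 16 members overlapped between groups, with differences from -0.55 (Rpl37, deposited intensities of 7 to 18) to 0.27 (Rpl30).

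Summed over the brightest probes, the members took 0.229% of all intensity in each Salv CKO sample, 0.207% in Control 1 and 0.223% in Control 2. This is no share of the whole ribosome, as the members are a part of its proteins. The difference in this share, which needs no normalization between arrays, was 0.014 percentage points. The exact two-sided permutation test gave p = 0.333, the smallest p that 2 samples against 2 allow. Without Rpl8 the shares were 0.213% and 0.211% against 0.207% and 0.206%, and the difference was 0.0055. With Rpl8 included, the difference was 0.0065 without Control 1 and 0.022 without Control 2. Rpl4 alone made up 0.101% and 0.0938% in the Salv CKO samples and 0.0816% and 0.0978% in the controls.

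Rpl8, a protein next to the catalytic centre of the large subunit, had readings that did not repeat. Its 3 arrays read 7833, -4 and -5 in Salv CKO 1, and 12262, -5 and 2 in Salv CKO 2. They read -2, 0 and -4 in Control 1, and -6, 8395 and 3 in Control 2. The probe was thus bright on 1 array of 3 samples and at background on the other 9 arrays, although the 3 arrays of a sample share its RNA. Of all 26423 probes, 11 showed such a pattern in at least 1 sample (1 array at 1000 or more, the other 2 at 10 or less), and Rpl8 was the single one with it in at least 2. Its group difference was 2.08 ± 1.67 (SE), -0.38 with the median of technical arrays, and -0.42 without Control 1. No level of Rpl8 can be given from this probe.

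Rpl19, a large subunit protein, had a smaller jump of this kind. Its first array of Control 1 read 362, against 21 and 23 on the other 2 arrays and 27 to 51 elsewhere. Its difference of -0.63 ± 0.40 (SE) was -0.094 with the median of technical arrays. A technical range of more than 2 on the log2 scale within some sample occurred for 4 of 40 genes (Rpl8, Rpl19, Rps29 and Rps3a1), against 18.2% of all probes. Among the 27 members in the brighter 50% of probes it occurred for 0, against 0.643% of all such probes. Over the 40 genes the median SD was 0.10 between technical arrays of a sample and 0.22 between samples of a group.

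**Figure D3:**
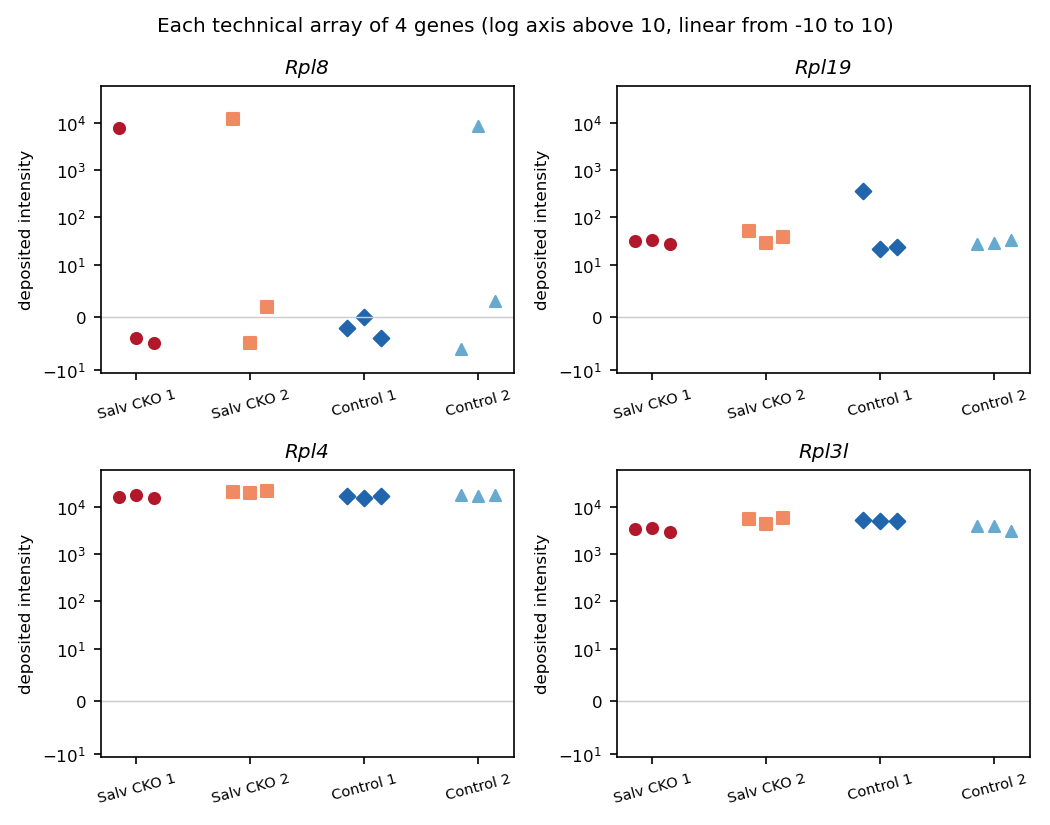
Deposited intensity (vertical axis, logarithmic above 10 and linear from -10 to 10) on each of the 3 technical arrays of each sample, for 4 genes. Rpl8 reads 7833, 12262 and 8395 on single arrays of 3 samples and near 0 on the other 9. Rpl19 reads 362 on 1 array of Control 1. Rpl4 repeats closely within a sample, and Rpl3l less closely, with a log2 range of 0.44 within Control 2.

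The paralogues are of interest in heart, where Rpl3l replaces its parent Rpl3 in ribosomes of striated muscle after birth. Rpl3l was measured by 3 probes, and Rpl3 was not analysed here. The brightest Rpl3l probe read 11.97 and 12.11 in Salv CKO 1 and 2 and 12.18 and 11.92 in Control 1 and 2. All samples lay within 0.26 of each other, and the difference was -0.012 ± 0.23 (SE, limma adjusted p = 1.00, 95% interval -0.61 to 0.59). The second probe read 8.67 and 8.61 against 7.45 and 8.51, low in Control 1 alone, with a difference of 0.66 ± 0.41 (SE) and of 0.12 without Control 1. The third read 5.89 in both Salv CKO samples against 5.64 and 6.12, a difference of 0.014. Which transcripts each probe detects was not examined.

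The other paralogues had negative differences, as Rpl3l did by its brightest probe (4 of 4, median -0.19). Negative members numbered 3 of 4 with the median of technical arrays, without Control 1 (median -0.11), without Salv CKO 1 (-0.26) and without Salv CKO 2 (-0.099). Rpl7l1, which acts in assembly of the large subunit, read 9.72 and 9.47 against 9.98 and 9.80. Its groups were apart, and the difference was -0.29 ± 0.23 (SE), against -0.075 by its other probe. Rps27l, a p53-induced copy of Rps27, read 11.18 and 11.20 against 11.39 and 11.20 and differed by -0.11 ± 0.21 (SE). Salv CKO 2 and Control 2 were equal to 2 decimals. Rpl39l, best known from testis, read 5.83 and 4.98 against 5.51 and 5.86, low in Salv CKO 2 alone. Its difference was -0.28 ± 0.36 (SE), and 0.14 without Salv CKO 2. Rpl22, whose own copy Rpl22l1 is no member, differed by 0.20 ± 0.28 (SE), low in Control 2 alone. Rpl39 and Rpl7 were not analysed here.

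Where a gene had several probes they did not always give the same answer. Of 8 such genes, 3 had probes of opposite sign: Rpl3l, Rps7 and Rpl27a (0.029 and -0.11). The widest gap was in Rps15a, which was singled out after its values were seen. Its brightest probe read 8.77 and 8.40 against 8.26 and 8.63 (0.14 ± 0.27, SE), and the groups overlapped. Its dim probe read 9 to 18 on the 6 Salv CKO arrays and -3 to 2 on the 6 control arrays, so no array overlapped. On the log2 scale the dim probe read 3.58 and 3.63 against 1.08 and 0.43, and its difference was 2.85 ± 0.30 (SE, limma unadjusted p = 0.000324, adjusted p = 0.998). It was the single one of 49 member probes with an unadjusted p under 0.05 (1.95% of all probes were higher at such a p), and at these intensities the size rests on the pseudocount.

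**Figure D4:**
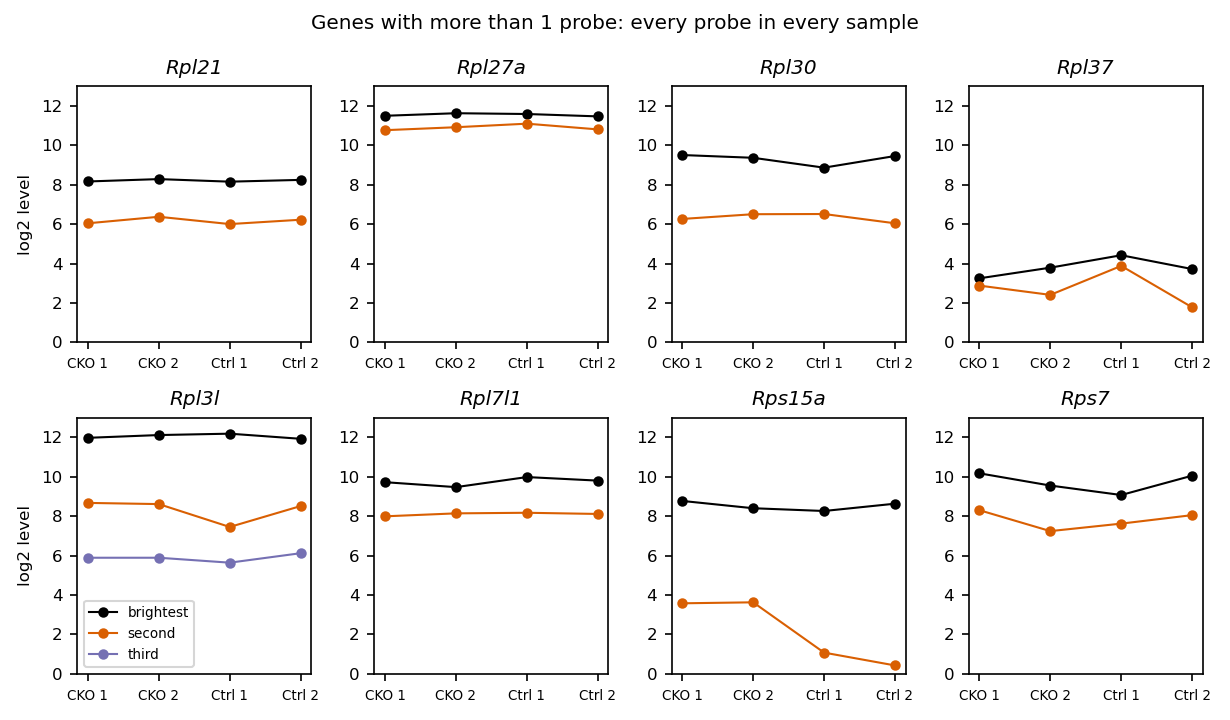
Log2 level (vertical axis) of every probe of the 8 genes with more than 1 probe, in Salv CKO 1 and 2 and Control 1 and 2 (horizontal axis). The second probe of Rps15a falls from 3.58 and 3.63 to 1.08 and 0.43 while the brightest stays between 8.26 and 8.77, and the second probe of Rpl3l dips in Control 1 (7.45) where the brightest does not.

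Genes that build ribosomes were set beside their products. Of 50 listed factors of ribosome assembly and RNA polymerase I, 40 were measured. Differences were negative for 30 of them and positive for 10 (48.6% of all probes positive), with a median of -0.13 (all probes -0.010). None passed over all probes (limma, smallest adjusted p = 0.998), and 1 had an unadjusted p under 0.05, lower in Salv CKO as 2.02% of all probes were. The groups did not overlap for 17, of which 14 were lower in Salv CKO and 3 higher (15.8% and 14.8% of all probes). The median stayed negative under median centring (-0.27, with all probes at -0.078), without normalization (-0.079) and without each sample in turn (from -0.20 to -0.063). With median centring 8 genes were lower without overlap and 0 higher (15.1% and 11.8% of all probes). Without normalization 1 gene was lower and 1 higher (4.39% and 23.2% of all probes).

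Rrp12, which exports and matures ribosomal subunits, read 8.88 and 9.22 in Salv CKO 1 and 2 and 9.90 and 9.63 in Control 1 and 2. Both controls were higher, with a difference of -0.72 ± 0.25 (SE, limma adjusted p = 0.998, unadjusted p = 0.0376). Riok2, a kinase that matures the small subunit, read 8.54 and 8.58 against 9.24 and 8.74. Its difference was -0.43 ± 0.26 (SE). Tsr1, another factor of small subunit maturation, read 8.47 and 8.58 against 9.09 and 8.75 (-0.40 ± 0.24, SE). Control 1 was the highest sample in these 3 genes. Over the list, Control 1 was highest for 21 of 40 genes (35.8% of all probes) and Salv CKO 1 was lowest for 22 (27.9% of all probes). Taf1b was near background, at deposited means of 1.33 or less.

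Translation factors, many of which share the pyrimidine tract, were measured for 36 of 39 genes. Of these, 19 were positive, with a median of 0.070, and 0 passed in limma (0 at an unadjusted p under 0.05, where 3.97% of all probes had one). The median was -0.10 with median centring (all probes -0.078), and 0.022 without Control 2 (all probes -0.039). Tpt1, a growth-related protein with a classical pyrimidine tract, read 7.48 and 7.51 against 6.74 and 7.25 (0.50 ± 0.26, SE). Eif2s1, a subunit of the factor that brings the initiator transfer RNA, read 7.66 and 7.58 against 5.92 and 7.51 (0.90 ± 0.56, SE), low in Control 1 alone. Eif3e, a scaffold subunit of initiation, differed by 0.24, and Eif5b, which joins the subunits, by -0.50.

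In the list of mTOR, Myc and the kinases of ribosomal protein S6, 11 of 23 measured genes of 28 were positive, with a median of -0.003. With median centring the median was -0.17 (all probes -0.078). Of the 23 genes, 0 passed (limma, 0 at an unadjusted p under 0.05). Myc and Mycn themselves were listed but not measured. Mxd4, an antagonist of Myc, read 8.44 and 7.93 against 7.20 and 7.70 in the controls, apart by group (0.73 ± 0.31, SE, limma unadjusted p = 0.069). Rps6kb2, one of the kinases, read 8.44 and 8.45 against 7.96 and 8.14 (0.40 ± 0.21, SE). Eif4ebp1, the translational brake that mTOR releases, read 12.46 and 12.40 against 12.12 and 12.09 (0.33 ± 0.21, SE). Larp1 read 9.30 and 9.28 against 8.52 and 9.17 (0.44 ± 0.30, SE). These 4 genes had the smallest p of the list. Over all 23 genes the groups were apart for 7, of which 5 were higher and 2 lower in Salv CKO (14.8% and 15.8% of all probes). Leaving out 1 sample gave list medians between -0.012 and 0.13. In ribosome quality control, 6 of 12 genes were positive (median -0.001, and from -0.097 to 0.10 with 1 sample left out) and 0 passed (limma, 0 at an unadjusted p under 0.05). The smallest p values there belonged to Hbs1l (-0.33), Ascc3 (0.20), Eif2ak4 (-0.17) and Gcn1 (0.29).

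**Figure D5:**
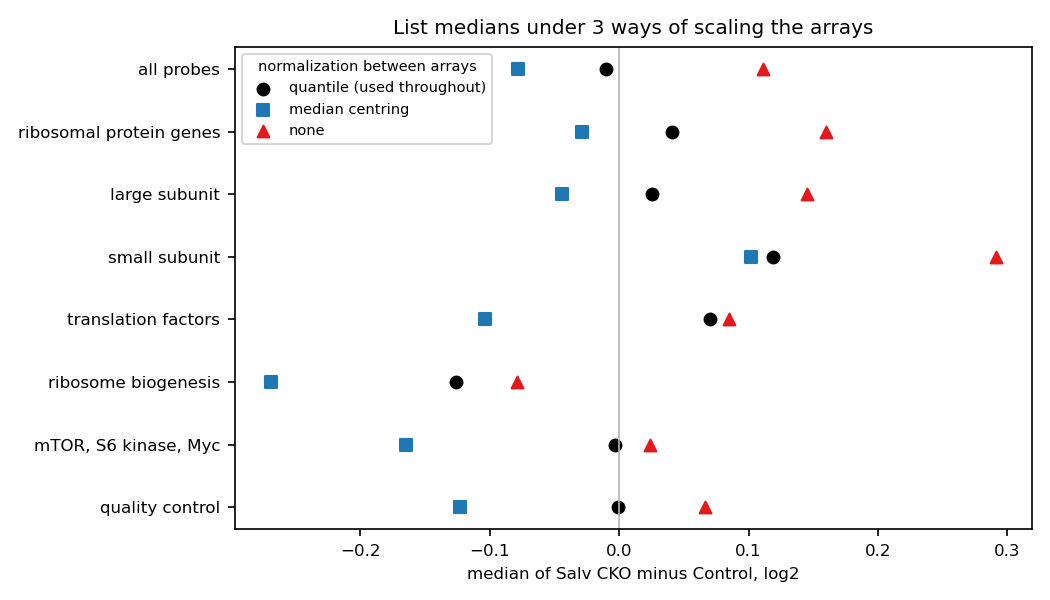
Median difference between Salv CKO and Control (horizontal axis, log2) of all probes and of 7 gene lists under 3 ways of scaling the arrays. The ribosomal protein median moves from -0.029 to 0.16 around 0 as all probes move from -0.078 to 0.11, and the ribosome biogenesis median stays below 0 in each.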

How the data were processed

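The authors deposited probe intensities, whole numbers from -10 to 65474 on a linear scale, for 12 Cy5 arrays. Per the labels' protocols, amino-allyl RNA from whole hearts was hybridised as 1 sample per array. The scanner, any background correction and any scaling by the authors are not stated in the labels read. Array medians ran from 58 to 88, so arrays were quantile normalized with limma (version 3.58.1, R 4.3.3). Values below 0 were set to 0.0833, log2(value + 1) was taken, and each sample became the mean of its 3 technical arrays. Groups were tested with limma's lmFit and eBayes (two-sided, residual degrees of freedom 2, prior 2.60), with Benjamini-Hochberg adjustment over 26423 probes. The labels say no more of the samples' origin than that they are biological replicates, so the p-values reflect only how these samples vary, which may be technical, and their number limits the precision.

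Genes were named from the platform annotation, with symbols updated through RefSeq (GRCm38.p6; 18213 probes matched by symbol, 2126 by synonym, 38 not at all, and 6046 had no symbol). The brightest probe by mean level stood for a gene. The rule left out 9 Rps6k genes. No ribosomal protein probe reached 60000, near the ceiling, so leaving out such members changes no count or median of members. Leaving out the 9 probes that did reach it changes the total behind the share of intensity. Named genes were members without overlap between groups (up to 8 in each direction by p), paralogues and their parents, stalk and anaemia genes, the 6 widest ranges, members whose probes disagreed, and up to 4 genes with the smallest p in each other list. Members and lists were chosen with earlier results of these data known. The procedure was tested on simulated data. Motifs were searched in RefSeq promoter windows, and figures were drawn with matplotlib 3.10.9. Alternatives covered normalization, pseudocount, technical arrays, dim probes, pairing, probes per gene and each sample left out.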

Additional observations from a re-analysis of the deposited data

How the results depend on the processing

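With 2 samples a group, the median half-width of a 95% interval was 0.66 on the log2 scale, and dim probes depend on the pseudocount. With 1 sample left out, the lone sample is assumed to vary like the other group. No ribosomal protein gene passed after adjustment in any setting run. Members at an unadjusted p under 0.05 are not counted here with 1 sample left out, as a group then holds a single sample. The limma count of 0 probes (1048 at unadjusted p under 0.05) became 2 with median centring and 14 without normalization. It became 61 when all 12 arrays entered with sample as random block, a fit whose p-values may be too small. There 2202 probes had an unadjusted p under 0.05. With the dimmest 25% and 50% of probes left out, and so fewer tests, that count was 599 and 327, and it was 638 to 2824 with 1 sample left out. The replicate block gave 0 probes (743 at unadjusted p under 0.05). The labels do not say that equal numbers mark a shared origin, and deviations of equally numbered samples correlated at -0.25. The crossed pairing, chosen after seeing the data, gave 0 and 1545. The median over ribosomal protein genes, 0.041, was -0.029 with median centring (all probes -0.078) and 0.16 without normalization (all probes 0.11). It was 0.083 without paralogues and Rps19bp1, and -0.089 to 0.074 with 1 sample left out. The 22 positive genes were 14 of 27 without the dimmest 50%, where fewer genes were counted, and 17 to 25 with 1 sample left out. The 12 genes without overlap (7 higher, 5 lower) were 6 with median centring (4 and 2) and 12 without normalization (12 and 0). They were 21 to 33 with 1 sample left out, where fewer samples had to be apart. The share over all probes was not counted there, so that rise cannot be read as more separation. Without the 9 probes at 60000 or more, the share of intensity differed by 0.0149 percentage points. It differed by 0.0065 to 0.022 with 1 sample left out, and by 0.0055 without Rpl8, an alternative chosen after seeing the data. The cause of these changes was not tested otherwise.

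Of the 40 genes, 11 changed sign in at least 1 of 8 settings with all samples. A sign could not change in all of these settings. The replicate block, the random block and leaving out the dimmest probes keep the difference of each gene as it was. Only median centring, no normalization, the median of technical arrays and the larger pseudocount could change a sign. With median centring Rpl13 was 0.061, Rpl21 -0.073, Rpl27a -0.18, Rpl4 -0.068 and Rps21 -0.039. With the median of technical arrays Rpl13 was 0.19, Rpl21 -0.002, Rpl3l 0.014 and Rpl8 -0.38. Without normalization Rpl13 was 0.25, Rpl27 0.17, Rpl5 0.025, Rps25 0.080, Rps3 0.093 and Hbs1l 0.015. With 1 sample left out, 22 of the 40 changed sign. Their differences then ran from -0.12 to 0.037 for Rpl13, -0.11 to 0.30 for Rpl14, -0.037 to 0.079 for Rpl21, -0.084 to 0.48 for Rpl22, -0.26 to 0.18 for Rpl23, -0.014 to 0.30 for Rpl24, -0.87 to 0.73 for Rpl27 and -0.036 to 0.094 for Rpl27a. They ran from -0.024 to 0.57 for Rpl30, -0.24 to 0.010 for Rpl37a, -0.35 to 0.023 for Rpl38, -0.70 to 0.14 for Rpl39l, -0.14 to 0.12 for Rpl3l, -0.24 to 0.23 for Rpl5 and -0.42 to 4.58 for Rpl8. In the small subunit they ran from -0.045 to 0.33 for Rps15a, -0.061 to 0.17 for Rps16, -0.33 to 0.21 for Rps25, -0.32 to 0.19 for Rps3, -0.19 to 0.79 for Rps7 and -0.36 to 0.52 for Rpsa. For Rps19bp1 they ran from -0.15 to 0.021, and outside the family from -0.13 to 1.19 for Fau, -0.22 to 0.80 for Gcn1 and -0.46 to 0.21 for Sav1.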
